A study of Homo sapiens with 3 samples.

Results

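Cholesterol synthesis and its sterol sensing were followed through 8 genes of 27274 gene names on the array, HMGCS1, IDI1, FDPS, FDFT1, SQLE, LSS, INSIG1 and SREBF2. The genes were taken by symbol as a pathway list, drawn up with earlier results of these data known, and every probe carrying one of these names was included, which gave 9 probes, of which LSS had 2. The cells were HepG2, an established human hepatocarcinoma line, and RNA was compared on 1-color Agilent arrays after 30 h in 3 conditions with 1 array each. These were control cells at 0 μM etoposide, cells at 10 μM etoposide (the low dose) and cells at 100 μM etoposide (the high dose). Etoposide poisons topoisomerase II and leaves DNA double-strand breaks, and the study set the doses against each other to compare senescence with apoptosis. The labels call the control untreated, whereas the study's text names DMSO as its control. Although uptake genes belong to the same pathway, none of the 8 genes encodes a receptor for cholesterol uptake, so the values below concern synthesis and sterol sensing.

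Cholesterol is built from acetyl-CoA through mevalonate, the isoprenoid pyrophosphates and squalene, and then through a chain of sterols. The enzymes are transcribed under SREBP-2, a membrane-bound factor that is released from the endoplasmic reticulum when sterols are scarce and held there, with its escort SCAP, by INSIG proteins when sterols are plentiful. Liver cells are a main site of this synthesis, and they export cholesterol in lipoproteins or convert it to bile acids.

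Array signals were well above background, by the call of the scanner software, for 7 of the 8 genes on all 3 arrays. With 10 μM all 7 were below control cells under the scaling used here, as were 54.6% of all genes. The 7 also lay below control under 6 other scalings. Their median log2 fold change was -0.32 (-0.35 to -0.26 under the other scalings), against -0.03 for all genes. With no and spike-in scaling the median of all genes was above 0 (0.03 and 0.02). With 100 μM 5 of the 7 were above control cells, against 57.6% of all genes, with a median log2 fold change of 0.24. The number was 4 with spike-in scaling and 3 with no or median scaling, where the median of all genes was below 0. The widest gaps lay between the doses, where HMGCS1, LSS, IDI1 and SQLE were 1.55- to 1.82-fold lower with 10 μM than with 100 μM under the 75th-percentile scaling, a gap that 14.4% of all genes passed at 1.5-fold. With no scaling 0 of the 7 passed 1.5-fold lower, against 5.43% of all genes. HMGCS1 alone passed with median and spike-in scaling, against 6.21% and 6.99% of all genes. With 1 array per condition no test could be made, and these values describe 3 arrays.

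The arrays lay on 1 slide, and each held 34127 probes, of which 19836 to 20153 were well above background. Signals were divided by the 75th percentile of each array, a signal of 514 without etoposide, 536 with 10 μM and 432 with 100 μM, and values with 100 μM were therefore raised relative to the rest. The median log2 fold change of all genes well above background on both arrays was -0.03 for 10 μM over control, 0.09 for 100 μM over control and -0.10 for 10 μM over 100 μM. With no scaling these medians were 0.03, -0.16 and 0.22. CDKN1A, the p53 target that encodes p21, was 7.94-fold higher than control with 10 μM and 7.07-fold with 100 μM, and MDM2 (log2 fold changes of 2.81 and 1.67) and BTG2 (3.34 and 2.77) were higher too. All 6 hepatocyte markers examined (AFP, ALB, FGB, AHSG, APOA2 and RBP4) were well above background on every array. Of 5 markers of blood, endothelial or stromal cells, PTPRC, CD3E, PECAM1 and CDH5 had a brightest probe well above background on every array and COL3A1 had none. The signals of these 5 summed to 1.61 times the 75th percentile in control cells, 0.976 times with 10 μM and 1.56 times with 100 μM, against 992, 1014 and 1278 times for the hepatocyte markers, a sum held mostly by AHSG and APOA2. ALB was 1.67-fold lower than control with 10 μM and 1.43-fold lower with 100 μM. All 6 hepatocyte markers were lower with 10 μM than with 100 μM, as were 6 of the 7 genes and 60.1% of all genes. AFP turned under 4 and ALB and RBP4 under 3 of the 6 other scalings. PECAM1 gave 473 in control cells, 298 with 10 μM and 286 with 100 μM. PTPRC gave 257, 131 and 288, lowest with 10 μM, although 4 of its 5 probes were not well above background on any array. The part of these markers in the differences below was not tested. In RNA from whole cultures, fewer cells of a type and less RNA per cell cannot be told apart.

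Promoter sequence was examined because the pathway is known for shared control through sterol regulatory elements, which bind SREBP, and CCAAT boxes, which bind NF-Y. RefSeq windows on GRCh38.p14, running from 250 bases before to 50 bases after an annotated start, were matched by symbol for 6 of the 8 genes, HMGCS1, IDI1, FDPS, LSS, INSIG1 and SREBF2. Both strands were searched for the sterol regulatory element spelled TCACNCCAC, the CCAAT box spelled CCAAT, and the E box spelled CACGTG, which reads the same on both strands. For HMGCS1, with 2 windows, and IDI1, with 3, the window with the most matches is shown. The stretches below are upstream of the start, 5′ to 3′ on the strand of the gene, and capitals mark the matches, in which ATTGG is a CCAAT box on the opposite strand. SREBF2 is shown for its sterol regulatory element, HMGCS1, IDI1 and LSS as genes with wide gaps between the doses, and FDPS as the gene with the narrowest gap.
SREBF2 (chr22:41832952-41833023, plus strand): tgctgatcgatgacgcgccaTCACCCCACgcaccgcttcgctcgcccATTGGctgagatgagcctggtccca
HMGCS1 (chr5:43313488-43313587, minus strand): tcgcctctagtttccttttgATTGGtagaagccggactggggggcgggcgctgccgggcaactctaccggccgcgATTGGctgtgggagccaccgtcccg
IDI1 (chr10:1048949-1049038, minus strand): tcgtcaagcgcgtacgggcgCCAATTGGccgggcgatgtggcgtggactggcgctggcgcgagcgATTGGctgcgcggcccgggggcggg
LSS (chr21:46228900-46228944, minus strand): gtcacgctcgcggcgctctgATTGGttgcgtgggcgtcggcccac
FDPS (chr1:155308670-155308839, plus strand): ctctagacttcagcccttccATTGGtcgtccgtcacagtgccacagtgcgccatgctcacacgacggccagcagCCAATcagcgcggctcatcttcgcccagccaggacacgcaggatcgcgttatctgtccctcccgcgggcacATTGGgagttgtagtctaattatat
A CCAAT box was found in a window of 6 of 6 genes, against 34.6% of the 35116 windows listed for all genes, although HMGCS1 and IDI1 had more than 1 window in which to find one. It was present in 1 of the 2 windows of HMGCS1 and 2 of the 3 of IDI1. FDPS carried 3 matches, and the 3 of IDI1 include a pair that overlap in CCAATTGG, 1 on each strand. The sterol regulatory element as spelled was found only in SREBF2, from position -133 to -125 relative to the start, and in 1.13% of all windows. An E box, present in 7.26% of all windows, lay in LSS downstream of the start and in INSIG1 upstream of it. CCAAT boxes were thus present both in genes with wide gaps between the doses and in FDPS. These matches are letters in a window and not measured binding.

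**Figure D1:**
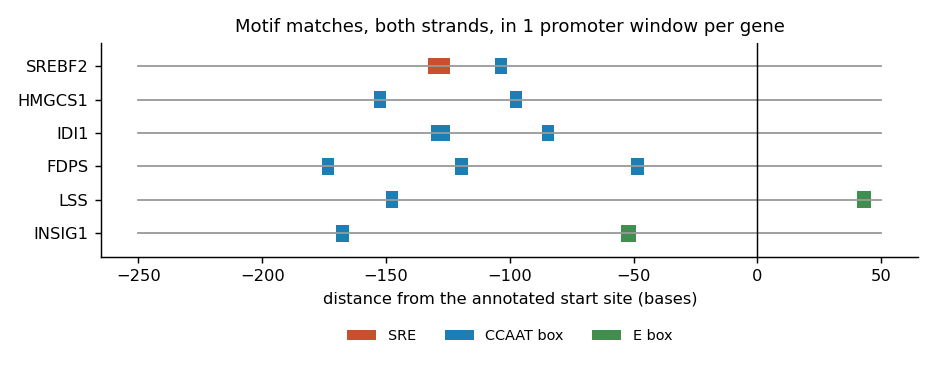
Motif matches in 1 promoter window of each of 6 genes, drawn by distance from the annotated start site in bases, with the gray line spanning the 300 bases searched. All 6 rows carry a CCAAT box, the sterol regulatory element (SRE) is seen in the SREBF2 row and E boxes in the LSS and INSIG1 rows.

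The early part of the pathway was measured through HMGCS1, IDI1 and FDPS. HMGCS1 joins acetyl-CoA and acetoacetyl-CoA to HMG-CoA, and its probe (NM_002130) lies on chromosome 5 of hg18 from 43325874 to 43325933. Before scaling, HMGCS1 gave 924 in control cells, 741 with 10 μM and 1088 with 100 μM, so the low dose was lowest and the high dose highest. After scaling, the log2 fold change of HMGCS1 over control was -0.38 with 10 μM and 0.49 with 100 μM, and the gene was 1.82-fold lower with 10 μM than with 100 μM. IDI1 converts isopentenyl pyrophosphate to its reactive isomer (NM_004508, chromosome 10 of hg18 from 1076619 to 1076678). IDI1 gave 1763 in control cells, 1731 with 10 μM and 2194 with 100 μM. The log2 fold change of IDI1 was -0.09 with 10 μM and 0.57 with 100 μM, so most of its gap between the doses lay on the side of 100 μM. FDPS makes farnesyl pyrophosphate (NM_002004, chromosome 1 of hg18 from 153556893 to 153556952). FDPS gave 12090 in control cells, 11940 with 10 μM and 9392 with 100 μM. Scaling brought these together, with log2 fold changes of -0.08 and -0.11 over control and 0.03 between the doses, and the last turned to -0.03 with the percentile over all spots. FDPS has processed pseudogenes of near-identical sequence, so its probe may also read other transcripts.

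The squalene and sterol steps were measured through FDFT1, SQLE and LSS. FDFT1, the squalene synthase, joins a pair of farnesyl pyrophosphates (NM_004462, chromosome 8 of hg18 from 11733610 to 11733669). FDFT1 gave 4842 in control cells, 4037 with 10 μM and 4332 with 100 μM, so it was highest in control cells before scaling. The log2 fold change of FDFT1 was -0.32 with 10 μM and 0.09 with 100 μM, and the latter was below 0 with no, median and spike-in scaling (-0.20 to -0.08). SQLE adds oxygen to squalene and is a rate-limiting step of the sterol branch (NM_003129, chromosome 8 of hg18 from 126103625 to 126103684). SQLE gave 3757 in control cells, 2988 with 10 μM and 3737 with 100 μM, so the low dose stood apart from the other arrays. After scaling, its log2 fold change was -0.39 with 10 μM and 0.24 with 100 μM, where no scaling and median scaling gave -0.01 and -0.05. SQLE was 1.55-fold lower with 10 μM than with 100 μM.

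LSS closes squalene epoxide to lanosterol, the first sterol, and had a pair of probes on chromosome 21 of hg18. The brighter probe (NM_002340, 46433727 to 46433786) gave 1406 in control cells, 1107 with 10 μM and 1502 with 100 μM. The dimmer probe (NM_001001438, 46432995 to 46433054) gave 182, 162 and 286 in the same order. Both probes were lowest with 10 μM and highest with 100 μM, but they differed in size. With 10 μM the log2 fold change was -0.41 for the brighter and -0.22 for the dimmer LSS probe, and with 100 μM it was 0.35 and 0.90. LSS was 1.68-fold lower with 10 μM than with 100 μM by the brighter probe and 2.19-fold lower by the dimmer. The brighter probe stands for the gene in the counts below, and averaging both moved LSS past 1.5-fold with 100 μM, with a log2 fold change of 0.62.

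Sterol sensing was represented by SREBF2 and INSIG1. SREBF2 encodes SREBP-2, and its probe (NM_004599) lies on chromosome 22 of hg18 from 40632145 to 40632204. SREBF2 gave 1228 in control cells, 1070 with 10 μM and 974 with 100 μM, so the order of the doses was the opposite of that in HMGCS1. After scaling, the log2 fold change of SREBF2 was -0.26 with 10 μM and -0.09 with 100 μM. Its difference between the doses was -0.17 after scaling and lay above 0 with no, median and spike-in scaling (0.05 to 0.14). INSIG1 retains the SREBP complex in the endoplasmic reticulum, and is itself an SREBP target. Its only probe (NM_005542, chromosome 7 of hg18 from 154732777 to 154732836) gave 4.2, 4.8 and 4.7 and was not well above background on any array, so no fold change is given. Genome annotation of hg18 was not used here, and the place of these probes in exons or untranslated regions is not stated.

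**Figure D2:**
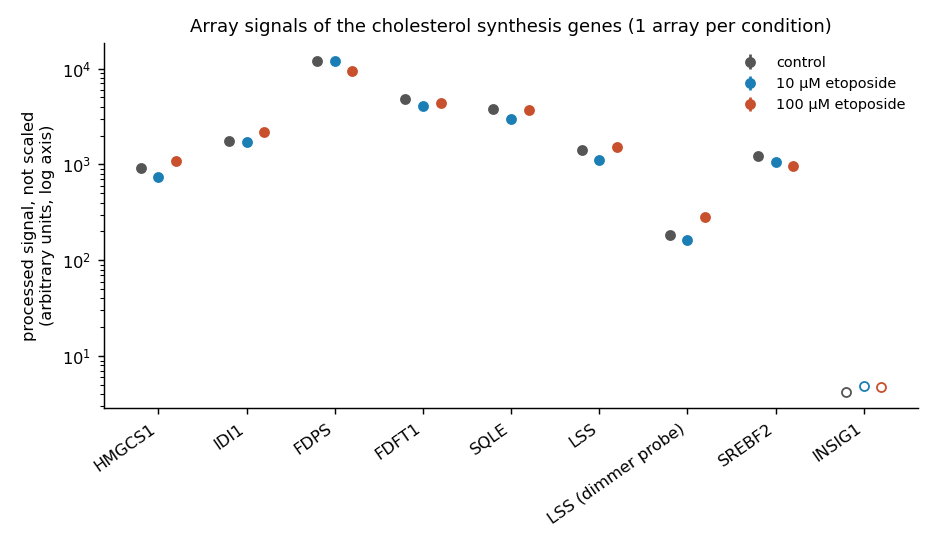
Signal of the 9 probes on a log axis before scaling between arrays, with 1 point per array and open points for signals not well above background. Bars show the spot-to-spot SD and are mostly shorter than the symbols. HMGCS1, SQLE and both LSS probes dip at 10 μM, and INSIG1 lies near 4 to 5 on all arrays.

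Every probe of these genes was spotted once, so the error within an array was taken from repeated probes of like signal. It came to an SD of 0.058 to 0.070 in a log2 fold change of a gene's brightest probe. It covers spots of 1 array and not cultures or RNA preparations. With 10 μM 5 of the 7 genes lay more than 2 of these SDs from control cells, all 5 below, and IDI1 and FDPS did not, while 58.5% of all genes measured on both arrays lay that far in either direction. With 100 μM 4 of the 7 lay more than 2 SDs from control cells, and FDPS, FDFT1 and SREBF2 did not, against 68.1% of all genes beyond this limit. Between the doses FDPS alone of the 7 was within 2 SDs of no difference, and 64.8% of all genes were beyond. Spot noise alone was thus exceeded by most genes on these arrays, and passing it says nothing particular about the 7.

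None of the 7 genes passed 1.5-fold in either direction with 10 μM, where 6.5% of 16664 genes were 1.5-fold lower than control and 9.06% were 1.5-fold higher. That all 7 were lower by any amount compares with 54.6% of all genes. With 100 μM again none of the 7 passed 1.5-fold, whereas 18.6% of 16779 genes were 1.5-fold higher and 9.82% were 1.5-fold lower. The 5 genes higher by any amount with 100 μM compare with 57.6% of all genes. IDI1, at 1.48-fold, was the nearest to the threshold. It passed with quantile normalization and with the percentile over all spots, as did 13.4% and 21.4% of all genes.

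Between the doses, 4 of the 7 genes were 1.5-fold lower with 10 μM, against 14.4% of 16688 genes, and none was 1.5-fold higher, against 7.52%. Being lower by any amount held for 6 of the 7 and for 60.1% of all genes. The count of 4 became 1 with median and spike-in scaling, where HMGCS1 remained, and 0 with no scaling. The share of all genes fell too, to 6.21% with median, 6.99% with spike-in and 5.43% with no scaling. In the order of this difference HMGCS1 (-0.87 on the log2 scale), LSS (-0.75), IDI1 (-0.65) and SQLE (-0.63) did not differ from their neighbors beyond 2 spot SDs. FDFT1 (-0.41), SREBF2 (-0.17) and FDPS (0.03) followed, each apart from the gene before it. Against control, no neighbors in the order were apart at either dose. The 3 comparisons use the same 3 arrays, so they are not independent of each other.

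**Figure D3:**
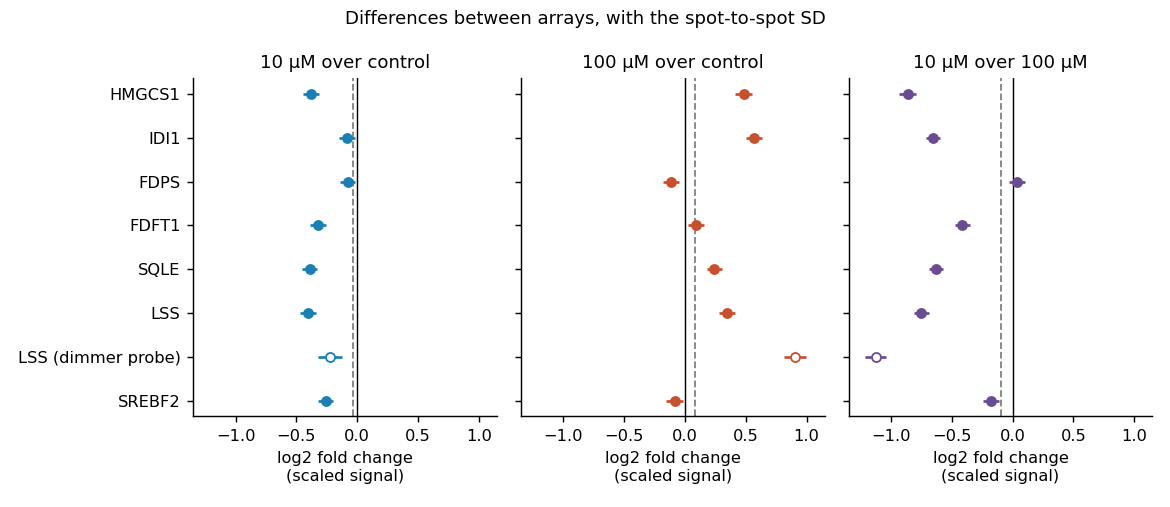
Log2 fold change of each probe (points, with the spot-to-spot SD as bars) in 3 comparisons after 75th-percentile scaling, with the dimmer LSS probe as an open point. The dashed line is the median of all genes. The points of all 7 genes lie left of 0 at 10 μM over control, which held under every scaling run, and the points spread from HMGCS1 to FDPS in the comparison of the doses, where FDPS and SREBF2 change sign under other scalings.

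Across the 3 arrays, 6 of the 7 genes were lowest with 10 μM, against 34.8% of 15178 genes measured on all arrays, and the exception was FDPS. The number was 5 with no, median and spike-in scaling, where SREBF2 left, and 7 with the percentile over all spots. The high dose was the highest array for 5 of the 7, against 45.9% of all genes, but FDFT1 and SQLE lost this place with no and median scaling and FDFT1 with spike-in scaling. The shares of 34.8% and 45.9% belong to the scaling used here. They were not computed under the others, so the numbers there have no share of all genes to set beside them. Because scaling moved all genes together, the 7 genes were also set against the median of all genes. Apart from quantile normalization and normexp, the alternatives to the scaling add a constant to each array and cannot change this distance. The median of the 7 lay 0.29 below that of all genes with 10 μM (log2), 0.16 above it with 100 μM and 0.54 below it between the doses. With quantile normalization these distances were 0.28 below, 0.26 above and 0.63 below, and with normexp background correction 0.34 below, 0.13 above and 0.49 below. Relative to the median of all genes, 7 of 7 genes were lower with 10 μM and 6 of 7 lower between the doses in all 3 ways of processing. Under the scaling used here, however, IDI1 (-0.09) and FDPS (-0.08) with 10 μM lay within the spot SD of that median (-0.03). With 100 μM 5 of 7 were higher, and 4 of 7 with normexp. FDFT1 (0.0895 with 100 μM) was barely above the median of all genes (0.0856).

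**Figure D4:**
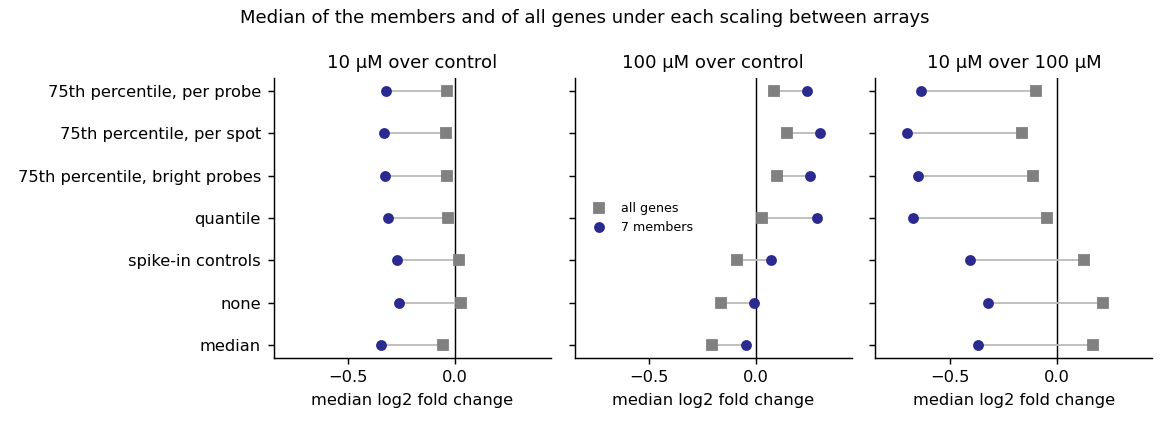
Median log2 fold change of the 7 genes (circles) and of all genes (squares) in the 3 comparisons under 7 scalings between arrays. At 10 μM the circles stay below 0 in every row, at 100 μM they fall to -0.01 with no scaling and -0.05 with median scaling, and the distance between circle and square there is 0.26 with quantile normalization and 0.16 in the other rows, whose scalings cannot change it.

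The other enzymes of the pathway were described through 13 genes, all measured on the 3 arrays. With 10 μM 11 of the 13 were below control, against 54.6% of all genes, with a median log2 fold change of -0.21. The number was 10 with no and spike-in scaling, where the median of all genes was above 0 (0.03 and 0.02). GGPS1 and SC4MOL passed 1.5-fold lower, as did 6.5% of all genes. GGPS1 alone did with no and spike-in scaling, as did 5.19% and 5.36% of all genes. SC4MOL, now named MSMO1, removes methyl groups from sterols, and its probe, spotted 10 times, gave 184 in control cells, 124 with 10 μM and 227 with 100 μM. It was 1.55-fold lower than control with 10 μM and 2.28-fold lower than with 100 μM, so that it was lowest with 10 μM and highest with 100 μM, as were HMGCS1 and LSS. GGPS1, which makes geranylgeranyl pyrophosphate outside the sterol branch, gave 64.0, 41.0 and 36.2, low signals with a spot SD of 0.21 in its log2 fold change of -0.70.

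With 100 μM 9 of the 13 were above control, against 57.6% of all genes, with a median of 0.35. The number was 7 with no and median scaling, 8 with spike-in scaling, and 10 with quantile normalization and the percentile over all spots. The median log2 fold change of all genes was -0.16, -0.20, -0.09, 0.03 and 0.14 in that order. Of the 13, 4 passed 1.5-fold higher, where 18.6% of all genes did. The number was 1 with no and median scaling, where 10.1% and 9.2% of all genes did. With spike-in scaling it was 2, against 12.4% of all genes. MVD, which decarboxylates mevalonate pyrophosphate, gave 650, 612 and 936 and was 1.71-fold higher than control with 100 μM. NSDHL, a sterol dehydrogenase, gave 3949, 3421 and 5015 and was 1.51-fold higher. TM7SF2, a sterol reductase, gave 570, 821 and 1011, was higher at both doses, and reached 2.11-fold with 100 μM. HSD17B7, a ketosteroid reductase with a near-identical gene copy that its probes may also read, gave 382, 431 and 517 at its brightest probe and was 1.61-fold higher with 100 μM. Its other 2 probes were 1.40- and 1.59-fold higher.

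Between the doses 12 of the 13 were lower with 10 μM, 7 of them past 1.5-fold, with a median of -0.59, against 60.1% and 14.4% of all genes. The exception was EBP (0.06), named after its value was seen. The count of 12 fell to 9 with no, median and spike-in scaling, where the median of all genes was above 0. The count of 7 fell to 2 with no scaling and 3 with median and spike-in scaling. The share of all genes past 1.5-fold lower was then 5.43%, 6.21% and 6.99%. The 6 enzymes above and these 13 were also taken as 1 group of 19. Under the 75th-percentile scaling 17 were lower than control with 10 μM, against 54.6% of all genes. With no and spike-in scaling, where the median of all genes was above 0, this number was 16. With 100 μM 14 were higher under the 75th-percentile scaling, against 57.6% of all genes. This became 10 with no and median and 12 with spike-in scaling, where the median of all genes was below 0. Of the 19, 11 were 1.5-fold lower with 10 μM than with 100 μM, against 14.4% of all genes. The count was 2 with no scaling, against 5.43% of all genes. It was 4 with median and spike-in scaling, against 6.21% and 6.99%.

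**Figure D5:**
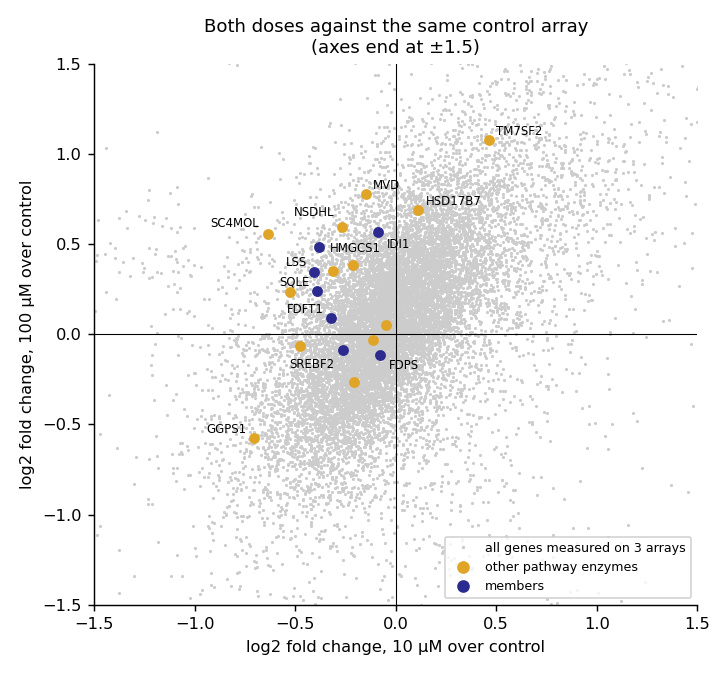
Log2 fold change over control at 10 μM (horizontal) and 100 μM (vertical), both against the same control array, for all genes measured on 3 arrays (gray), the 7 genes (blue) and 13 other pathway enzymes (yellow). Most pathway genes lie left of the vertical line, and HMGCS1, LSS, SQLE, SC4MOL, MVD and NSDHL lie to the upper left, although SQLE drops below the horizontal line with no and median scaling.

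Regulators of sterol levels other than SREBF2 and INSIG1 were described as a list. Most act in sterol sensing or SREBP cleavage, but MYLIP is not part of that cleavage. Of 6 such regulators (INSIG2, SCAP, SREBF1, MBTPS1, MBTPS2 and MYLIP), all measured, none passed 1.5-fold in any of the 3 comparisons. Of all genes, 6.5% were 1.5-fold lower and 9.06% higher with 10 μM, and 9.82% and 18.6% with 100 μM. Between the doses these shares were 14.4% and 7.52%. With only 6 genes, a count of 0 says little about the regulators. Their log2 fold changes ran from -0.37 to 0.08 with 10 μM and from -0.27 to 0.44 with 100 μM. Between the doses their median was -0.10 after scaling and above 0 with no, median and spike-in scaling (0.12 to 0.21).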

How the data were processed

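The authors deposited the scanner output of every array and a series table, both holding the intensity of each spot after background subtraction and detrending by Agilent Feature Extraction (version 10.7.3.1, per the labels). The table equalled those intensities for 44495 of 44495 spots. RNA had been amplified and labeled with Cy3. No scaling between arrays is given in the sources used here.

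From the deposited intensity, log2 values were averaged over the non-outlier spots of each probe and the log2 of the array's 75th percentile, each probe counting once, was subtracted. The brightest probe stood for a gene. A signal not well above background was raised to the lowest one that was (19.5, 22.7 and 21.6 in control, low dose and high dose), and no fold change was given where neither array was well above background. The spot SD came from the 50 repeated probes nearest in signal on the same array. The number of arrays, 1 per condition, limits the precision. Counts used 1.5-fold.

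The genes and the lists were chosen with earlier results of these data known. Named are every member, listed genes past 1.5-fold over control, 3 treatment check genes and the 3 genes nearest to the members' median pair of fold changes. Some genes of the pathway are not reported here. Probe positions are the files' (hg18). Promoter windows came from RefSeq (GRCh38.p14).

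Alternatives were 6 other scalings, normexp background correction (offset 50), other filters on dim probes, outlier spots kept, other rules for genes with several probes, the series table, genes with a RefSeq mRNA accession only, and 1.3- and 2-fold thresholds. The steps were tested on simulated arrays. Python 3.11.15, numpy 2.4.6, pandas 2.3.3, R 4.3.3 and limma 3.58.1 were used.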

Additional observations from a re-analysis of the deposited data

How the results depend on the processing

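No paired analysis was possible because there was 1 array for every condition. The median of the 7 genes with 10 μM stayed below 0 and moved by less than the spot SD under every alternative run. The count past 1.5-fold stayed at 0. A 1.3-fold threshold gave 3 lower and 0 higher, against 15.2% and 15.7% of all genes. With 100 μM the median of 0.24 became -0.0076 with no scaling, -0.0468 with median scaling and 0.0709 with spike-in scaling. The count of genes past 1.5-fold higher with 100 μM was 0 under the scaling used here, against 18.6% of all genes. It became 1 with quantile normalization (13.4% of all genes) and the percentile over all spots (21.4%). It was also 1 with the mean of a gene's probes (18.9%) and the median over a gene's probes (18.8%). At 1.3-fold it was 2, against 29.6% of all genes. Between the doses the median of -0.63 became -0.32 with no scaling, -0.37 with median scaling and -0.41 with spike-in scaling. It became -0.52 with no filter on dim probes and -0.70 with the percentile over all spots. The count of 4 genes past 1.5-fold lower, against 14.4% of all genes, became 0 with no scaling (5.43% of all genes). It was 1 with median scaling (6.21%) and spike-in scaling (6.99%), and 0 at 2-fold (3.97%). With no filter, INSIG1 enters as the 8th gene. No, median and spike-in scaling each add a constant to all genes of an array: spike-in controls moved by -0.08 on the log2 scale at 100 μM over control, the 75th percentile by -0.25. Among all genes past 1.5-fold, the share higher was 58.2% with 10 μM. It was 65.5% with 100 μM, against 34.1% with no scaling, 29.9% with median, 51.7% with quantile and 44.0% with spike-in scaling, and 34.3% for 10 μM over 100 μM, against 75.9%, 70.8%, 50.5% and 65.8% in the same order. Of 294 values of single genes, 63 moved by more than the spot SD. The 4 genes past 1.5-fold between the doses did not change sign, but they lay farther from 0 than scaling moved them. Smaller values did change sign. These were FDFT1 (3 scalings) and SQLE (2) with 100 μM over control, and SREBF2 (3) and FDPS (1) between the doses. Depth is limited by 1 spot per probe, and the single probe of INSIG1 was not well above background, which does not tell low expression from a probe that failed.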

Other observations

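Genes next to the synthesis pathway gave mixed directions. Of 6 genes of sterol transport and storage, 5 were measured, and ABCG1 was not well above background on any array. With 100 μM 1 of the 5 passed 1.5-fold higher and 1 passed 1.5-fold lower, against 18.6% and 9.82% of all genes. The number higher was 0 with no and median scaling, against 10.1% and 9.2% of all genes. The number lower was 2 with median scaling, against 21.5%. STARD4, which carries cholesterol between membranes and is a known SREBP-2 target, gave 164 in control cells, 168 with 10 μM and 235 with 100 μM, and was 1.70-fold higher than control with 100 μM (log2 fold change 0.76, and 0.47 to 0.82 over 7 scalings). TMEM97, a sterol-binding membrane protein also known to be sterol-regulated, gave 6291, 7627 and 2358, and was 2.24-fold lower than control with 100 μM and 2.61-fold higher with 10 μM than with 100 μM, with the same direction under all 7 scalings. With 10 μM TMEM97 had a log2 fold change of 0.22, above control, where all 7 measured members of the synthesis group were below it.

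Among 7 fatty acid enzymes known as SREBP targets, all measured, FADS1 and FADS2, the desaturases of polyunsaturated fatty acids, passed 1.5-fold over control, both with 10 μM, where 9.06% of all genes were 1.5-fold higher, and FADS2 also with 100 μM, where 18.6% were. FADS1 gave 3311 in control cells, 5835 with 10 μM and 2259 with 100 μM, so it was 1.69-fold higher than control with 10 μM, with a log2 fold change of -0.30 with 100 μM. FADS2 gave 795, 1389 and 1212 and was 1.68- and 1.81-fold higher. The directions of FADS1 and FADS2 over control were the same under all 7 scalings. With median scaling FADS2 at 100 μM fell short of 1.5-fold, with a log2 fold change of 0.57. The other 5 had log2 fold changes of -0.46 to -0.06 with 10 μM.

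Outside these lists, the genes whose pair of fold changes lay nearest to the members' median pair (-0.32 with 10 μM and 0.24 with 100 μM) were RXRB (-0.34 and 0.24), GPX2 (-0.32 and 0.26) and KIAA1217 (-0.31 and 0.26), among 11996 genes with a RefSeq mRNA accession measured on 3 arrays. Of those genes, 112 lay within a distance of 0.1, and of the members 1 did.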
